A study of Mus musculus with 8 samples.

Results

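The oxidative phosphorylation subunits described here are the nuclear-encoded proteins of the mitochondrial respiratory chain and of ATP synthase. They were chosen by name, as every gene symbol that begins with Nduf (a, b, c, s or v and a number), Cox (subunits 4 to 8), Atp5, Uqcr or Sdh in the form the mouse nomenclature gives to subunits. The rule found 80 of the 23393 named genes in the count files. Of these, 35 belong to complex I, 4 to complex II, 8 to complex III, 16 to complex IV and 17 carry an ATP synthase (complex V) name. The name pattern also takes in Atp5s and Atp5sl, which carry the prefix of ATP synthase but are not counted as structural subunits, Atp5sl being an assembly factor of complex I. A chosen list of 10 related genes from outside the pattern is given separately, among them Cox4i1, Cyc1, Cycs and Usmg5. Not all of the 10 are subunits, and the list is not a full count of what the pattern leaves out. The 13 subunits encoded by the mitochondrial genome were not analysed here.

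RNA was sequenced from the whole prefrontal cortex of C57BL6/J mice of 6 to 8 weeks, in 4 groups of 2 libraries. One group had received adeno-associated virus of serotype 9 (AAV9) with a short hairpin RNA that the titles name for Adnp (shAdnp), with its own controls given AAV9 with GFP (Adnp-set GFP). The other had received a hairpin named for Pogz (shPogz), with a separate pair of GFP controls (Pogz-set GFP). Adnp and Pogz encode zinc finger proteins of chromatin, and the series asks whether these risk genes of neurodevelopmental disorders converge on one mechanism. All 4 groups are the same strain and carry the same serotype of virus. The sources used here do not give the promoter of the virus or the cells it reached, so the libraries hold infected and uninfected cells together. The treatment field of both hairpin groups names another target, ASH1L, and groups follow the titles. The design text counts 3 knockdown and 2 control mice, while the labels speak of biological duplicates. The p-values measure a spread between the 2 libraries of a group that is pooled over all 4 groups and moderated across genes.

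Named genes held 27501722 to 69002749 counts per library, and 17415 genes passed the filter on low counts. The targeted transcripts were measured first. Adnp stood at 87.2 and 118 CPM in the shAdnp libraries, against 137 and 111 CPM in Adnp-set GFP (log2 fold change -0.27, SE 0.19, adjusted p = 0.768 by edgeR). Pogz stood at 49.0 and 37.3 CPM in shPogz, against 54.4 and 53.1 CPM in Pogz-set GFP (log2 fold change -0.32, SE 0.16, adjusted p = 0.667 by edgeR). Here and below, CPM values are counts scaled by the TMM-adjusted library size. All 10 neuron markers were detected in every library, with a summed level of 7067 to 10097 CPM, so the neurons of the labelled tissue were represented. Of the counts of shAdnp replicate 1, 7.62% fell on the ribosomal RNA precursor Rn45s, against 0.134% to 0.740% in the other 7 libraries.

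Oxidative phosphorylation passes electrons from NADH (through complex I) and succinate (through complex II) to ubiquinone, on through complex III and cytochrome c to oxygen at complex IV. The proton gradient that complexes I, III and IV build drives ATP synthase. Neurons of the cortex depend on it for the ATP that ion pumping and synaptic transmission use. The nuclear genes of the pathway are known to be transcribed together under NRF1, the ETS factor GABP and YY1, with co-activators of the PGC-1 family.

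The promoters of 5 members are shown because these genes were among those with the smallest p in a comparison or stood below the controls of both sets. The table of promoters, from RefSeq (GRCm38.p6), gives 250 bases before to 50 bases after the annotated start and held 65 of the 80 members. Capitals mark 3 strings searched on both strands: the NRF1 core GCGCATG, the ETS core CCGGAAG and the YY1 core AAGATGG. Positions count from the annotated start as 0. The first is Ndufv2 (chr17:66101510-66101809, minus strand), in which none of these letters was found, and the second is Ndufa3 (chr7:3617123-3617422, plus strand), with the YY1 letters at position 22. Ndufs4 (chr13:114388045-114388344, minus strand) also holds the YY1 letters, at position 35. Ndufb6 (chr4:40279372-40279671, minus strand) holds the ETS letters on the reverse strand at position -232 and the NRF1 letters at position -77. Atp5k (chr5:108434350-108434649, minus strand) holds the NRF1 letters on both strands at positions -50 and -47, where the strings overlap as a palindrome, and the ETS letters on the reverse strand at position 12.
Ndufv2: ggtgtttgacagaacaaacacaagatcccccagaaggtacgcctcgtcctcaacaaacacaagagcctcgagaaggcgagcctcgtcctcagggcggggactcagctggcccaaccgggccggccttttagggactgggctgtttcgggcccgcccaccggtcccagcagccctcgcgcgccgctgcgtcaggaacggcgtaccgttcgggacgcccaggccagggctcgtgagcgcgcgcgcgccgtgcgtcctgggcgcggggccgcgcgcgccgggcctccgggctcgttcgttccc
Ndufa3: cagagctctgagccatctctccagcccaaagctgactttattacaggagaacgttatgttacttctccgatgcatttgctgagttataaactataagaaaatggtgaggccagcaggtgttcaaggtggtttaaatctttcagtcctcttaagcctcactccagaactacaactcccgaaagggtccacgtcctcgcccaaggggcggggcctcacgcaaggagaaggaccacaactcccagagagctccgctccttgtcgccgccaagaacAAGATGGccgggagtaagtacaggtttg
Ndufs4: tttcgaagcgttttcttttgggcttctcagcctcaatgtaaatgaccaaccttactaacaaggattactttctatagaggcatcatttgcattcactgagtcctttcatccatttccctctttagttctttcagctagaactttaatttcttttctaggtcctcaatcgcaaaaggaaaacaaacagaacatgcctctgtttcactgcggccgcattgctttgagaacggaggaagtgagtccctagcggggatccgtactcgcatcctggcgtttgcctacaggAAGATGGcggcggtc
Ndufb6: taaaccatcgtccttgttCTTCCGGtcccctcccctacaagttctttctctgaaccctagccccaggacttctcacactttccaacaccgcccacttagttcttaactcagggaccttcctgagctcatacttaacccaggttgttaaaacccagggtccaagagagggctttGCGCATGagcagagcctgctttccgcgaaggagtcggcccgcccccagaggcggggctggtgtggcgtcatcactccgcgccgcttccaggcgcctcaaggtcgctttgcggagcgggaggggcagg
Atp5k: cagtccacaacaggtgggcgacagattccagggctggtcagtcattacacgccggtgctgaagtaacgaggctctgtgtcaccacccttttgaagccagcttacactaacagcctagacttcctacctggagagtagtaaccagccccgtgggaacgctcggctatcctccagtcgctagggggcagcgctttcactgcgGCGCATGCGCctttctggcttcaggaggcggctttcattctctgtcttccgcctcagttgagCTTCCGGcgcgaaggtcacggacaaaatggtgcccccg

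These letters were more common in the members' promoters than in promoters at large. The NRF1 letters stood in 20.0% of the 65 members with a promoter, against 6.89% of the 12447 tested genes with one. A member with several annotated starts counted if any of them held the letters. For the ETS letters the shares were 24.6% and 16.2%, and for the YY1 letters 15.4% and 7.66%. At least 1 of the 3 strings was found in 31 of the 65 members (47.7%), against 27.3% of the tested genes. Complex III had the NRF1 letters in 2 of 5 members and complex V in 3 of 13, while the YY1 letters were mostly in complex I, in 7 of 31. A match describes letters and is not evidence of binding.

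Levels between genes were compared per length, as counts per base of the RefSeq-paired transcripts scaled to the same sum in each library (TPM). In the 4 GFP libraries the subunits spanned 3 orders of magnitude, and 57 of the 80 lay above the 95th percentile of detected genes. The most abundant was Atp5b, the catalytic beta subunit of ATP synthase, at 2130 ± 140 TPM (SD, n = 4 GFP libraries). Cox8a, a small structural subunit of complex IV, followed at 1767 ± 101, and Atp5a1, the alpha subunit that alternates with beta in the F1 head, at 1337 ± 87.8. The ranges of these 3 genes did not overlap, with Atp5b at 1948 to 2280, Cox8a at 1641 to 1883 and Atp5a1 at 1251 to 1445. Cox6a1, Cox6b1 and Ndufa4 came next at 1077, 1030 and 1024 TPM, and their ranges overlapped. Ndufa4 carries a complex I name but is now placed in complex IV.

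In complex I, Ndufb9, an accessory subunit, was highest at 664 ± 45.0 TPM. Among the core subunits of the peripheral arm, the part that carries the flavin and iron-sulfur clusters, Ndufs3 stood at 125 ± 7.67. Ndufv1, which binds NADH and flavin, stood at 350 ± 12.8, Ndufs1 at 203 ± 10.1 and Ndufv2 at 200.5 ± 12.5. Ndufs4, an accessory subunit whose loss gives a Leigh-like disease in mice, stood at 105 ± 12.2. In complex II, the flavoprotein Sdha was at 517 ± 26.7 and the iron-sulfur protein Sdhb at 323 ± 26.6. The membrane anchors Sdhd and Sdhc were at 216 ± 14.2 and 69.3 ± 1.97.

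In complex III, Uqcrh, the acidic hinge protein at the cytochrome c side, was highest at 850 ± 145, and the core proteins Uqcrc1 and Uqcrc2 were at 449 ± 9.80 and 392 ± 18.9. Uqcrfs1, the Rieske iron-sulfur protein, was at 215 ± 17.9. Complex IV held a step between structural subunits and tissue isoforms. The 8 structural subunits other than Cox7c lay between 335 ± 13.7 (Cox5b) and 1767 TPM. By contrast, the heart and skeletal muscle isoforms Cox6a2, Cox7a1 and Cox8b were at 14.99 ± 2.45, 11.2 ± 3.37 and 1.66 ± 1.63. The testis isoforms Cox6b2 and Cox7b2 were at 8.47 ± 7.99 and 3.18 ± 1.95, and Cox8c, the remaining testis isoform, had 0 counts in all 8 libraries, which allows up to 3 counts in each.

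The genes of the c ring, Atp5g1, Atp5g2 and Atp5g3, encode the same mature proton-carrying subunit. Atp5g3 was highest at 570.0 ± 51.2 TPM, Atp5g1 at 41.3 ± 6.16 and Atp5g2 at 6.86 ± 1.92. The annotated length behind Atp5g1 is 4778 bases, against 724 for Atp5g3, which lowers its value per length. Atp5k, the e subunit at the dimer interface, stood at 790.5 ± 23.9, whereas Atp5l, the g subunit beside it, stood at 16.4 ± 2.13. Some of the low values fell on genes that share sequence with other loci. Of the 50-base windows of Atp5g2, 87.4% also occur in transcripts of other annotated genes, mostly pseudogenes. The share was 68.5% for Atp5l, 53.0% for Cox7c (40.2 ± 3.42 TPM) and 50.5% for Atp5h, which stood higher at 392 ± 56.0 TPM. Ndufs5, an accessory subunit, had 1 count in total over the 8 libraries, while BC002163, a locus that shares 41.2% of the Ndufs5 windows, stood at 23.2 to 29.1 CPM. How the authors' counting treated reads that match several loci is not given in the sources used here, so the levels of these genes are uncertain. In contrast, 61 members shared under 10% of their windows. Their median was 286 TPM, against 284 TPM for the 15 members with 10% to under 50% shared.

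**Figure D1:**
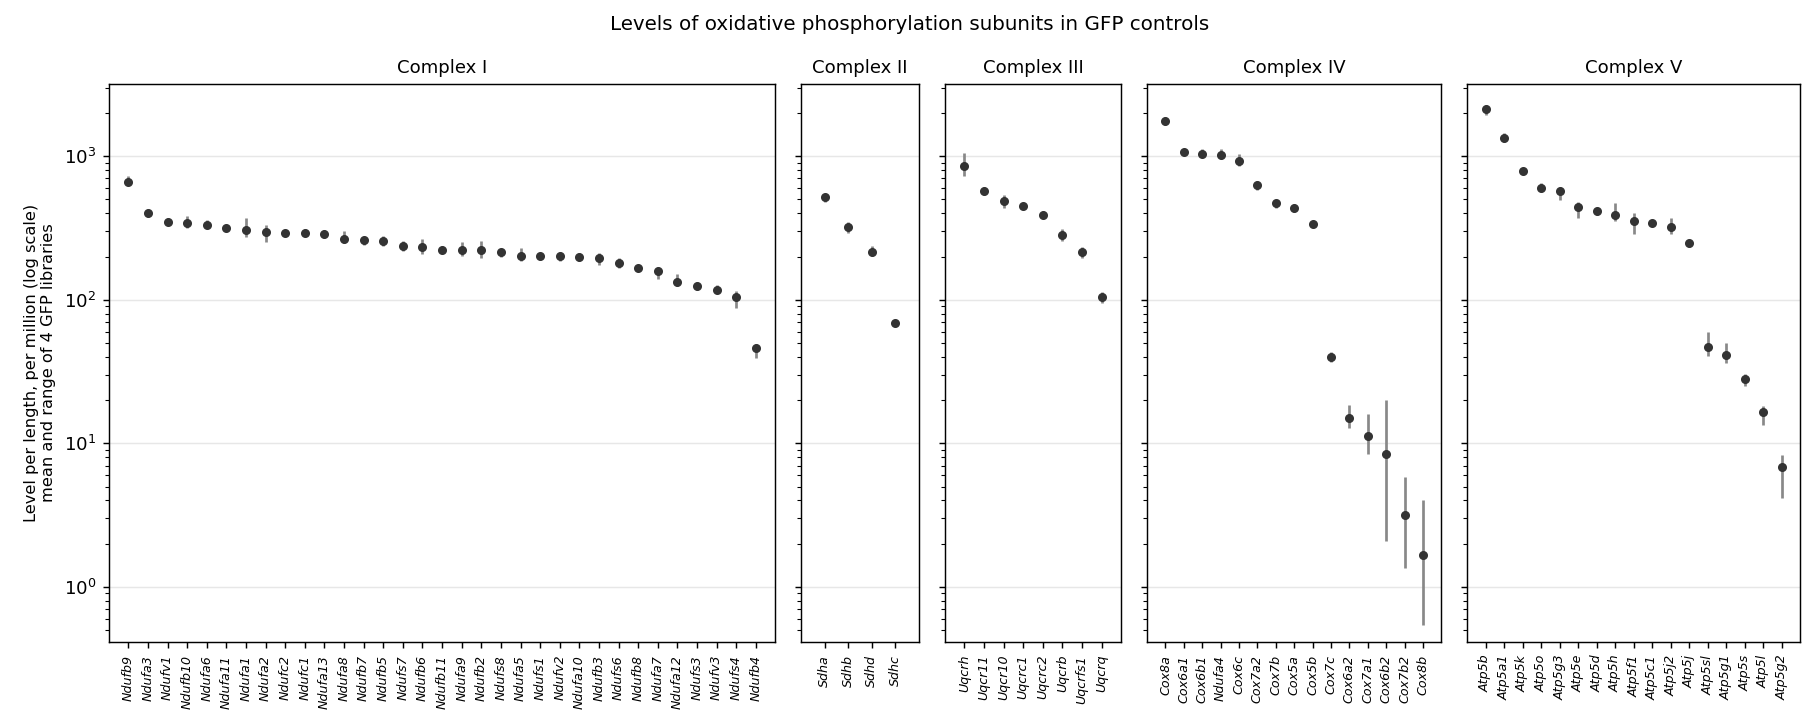
Level per length of the subunits reported here in the GFP controls on a log scale, by complex, with points for the mean and bars for the range of 4 libraries. The tissue isoforms of complex IV and Atp5g2 and Atp5l of complex V lie at 16.4 TPM or less, and Cox8c and Ndufs5, at a mean of 0, are not drawn.

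As a share of all named-gene counts, the 80 subunits took 0.811% and 0.826% in shAdnp, against 0.880% and 0.964% in Adnp-set GFP. In the other set they took 0.891% and 0.942% in shPogz, against 0.944% and 0.890% in Pogz-set GFP. Both shAdnp libraries lay below the other 6, and the shPogz libraries overlapped their controls. Without Rn45s in the total, the shAdnp shares were 0.878% and 0.833%, against 0.882% and 0.967% in Adnp-set GFP, so that shAdnp replicate 1 then stood beside a control. Over the TMM-scaled library size the shares were 0.888% and 0.828% in shAdnp, against 0.907% and 0.999% in Adnp-set GFP, and 0.866% and 0.867% in shPogz, against 0.918% and 0.872% in Pogz-set GFP. On that scale the shPogz libraries lay below their controls, and shAdnp replicate 1 lay above both shPogz libraries and Pogz-set GFP replicate 2.

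Over the 78 subunits tested, single libraries stood apart from their own group. Adnp-set GFP replicate 2 had the highest CPM of the 8 libraries in 48 of 78 subunits (61.5%), against 15.1% of all tested genes. The lowest CPM was most often in shAdnp replicate 2, for 37 subunits (47.4%), against 13.9% of all tested genes. In shPogz replicate 2 it was found for 19 (24.4%), against 25.5% of all tested genes. Within Adnp-set GFP, replicate 2 lay above replicate 1 by a median of 0.15 on the log2 scale, and within shAdnp replicate 2 lay below replicate 1 by a median of 0.12. The same 2 libraries were the extremes in each of complexes I to V, Adnp-set GFP replicate 2 with the highest median deviation (0.13 to 0.18) and shAdnp replicate 2 with the lowest (-0.13 to -0.10).

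**Figure D2:**
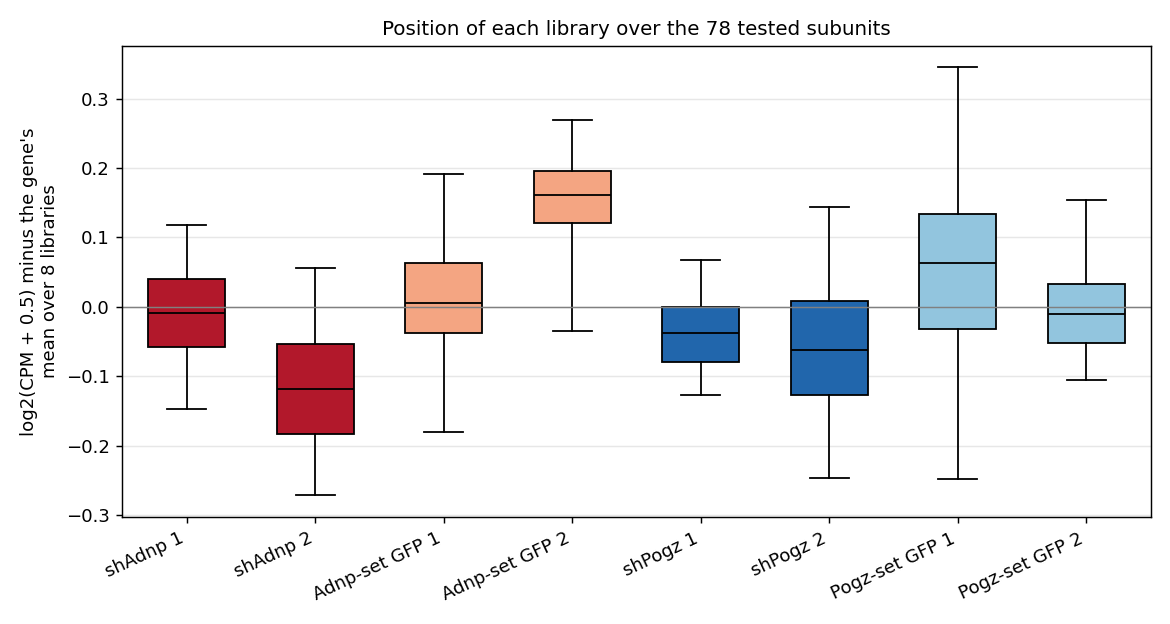
Deviation of each library from the mean of 8, as log2(CPM + 0.5), over the 78 tested subunits, with boxes for the quartiles and median and whiskers for the 5th and 95th percentiles. Adnp-set GFP replicate 2 sits highest with a median of 0.16 and shAdnp replicate 2 lowest with a median of -0.12.

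Against their own controls, the subunits in shAdnp lay slightly and broadly lower, and no single gene passed the test. The edgeR quasi-likelihood test adjusted over all genes called 0 of 78 subunits, and it called 0% of all tested genes. DESeq2 and limma-voom also called 0 subunits, with a smallest adjusted p of 0.0640 and 0.272, both for Ndufv2, where DESeq2 called 0.0249% of all genes lower and 2.59% higher. At an unadjusted p under 0.05, 6 subunits were lower and 0 were higher, where 1.69% of all tested genes were lower and 6.67% higher. A log2 fold change below 0 was found for 71 of the 78, where 52.3% of all tested genes lay below 0, with a median of -0.15 against -0.01. Both shAdnp libraries lay below both controls for 39 subunits, where this held for 21.0% of all tested genes, and above both for 2 (Cox6a2 and Cox8b), where it held for 20.4%. The median was -0.08 without Adnp-set GFP replicate 2 (52 below 0) and also -0.08 without shAdnp replicate 2 (63 below 0). The subunits' median deviation from the mean of all libraries was -0.008 in shAdnp replicate 1, where Adnp stood at 87.2 CPM. It was -0.12 in shAdnp replicate 2, where Adnp stood at 118 CPM. In Adnp-set GFP replicates 1 and 2 it was 0.005 and 0.16, with Adnp at 137 and 111 CPM. Whether the subunits follow the level of Adnp was not tested.

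The summed levels of cell type markers stand beside these values. Sums of microglia markers, neuron markers and interferon-response genes did not overlap between a hairpin and its controls in either set. Oligodendrocyte markers overlapped in shAdnp, and reactive astrocyte markers in shPogz. Excitatory neuron and endothelial markers overlapped in both sets, and astrocyte and interneuron markers in shAdnp alone. None of them was tested as a sum. Microglia markers, 14 of 14 measured, summed to 2143 and 1393 CPM in shAdnp, against 584 and 810 CPM in Adnp-set GFP, and to 1269 and 2128 CPM in shPogz, against 1075 and 1118 CPM in Pogz-set GFP. Reactive astrocyte markers (10 of 10) summed to 1418 and 827 CPM in shAdnp, against 215 and 415 CPM in Adnp-set GFP, and to 793 and 1312 CPM in shPogz, against 649 and 821 CPM in Pogz-set GFP. Neuron markers (10 of 10) summed to 9265 and 9004 CPM in shAdnp, against 10097 and 10064 CPM in Adnp-set GFP, and to 8378 and 7067 CPM in shPogz, against 8405 and 8634 CPM in Pogz-set GFP. Excitatory neuron markers (7 of 7) summed to 2955 and 3706 CPM in shAdnp, against 3625 and 3240 CPM in Adnp-set GFP. In shPogz they summed to 3009 and 2049 CPM, against 2801 and 3270 CPM in Pogz-set GFP. Interneuron markers (8 of 8) summed to 808 and 970 CPM in shAdnp, against 923 and 903 CPM in Adnp-set GFP. In shPogz they summed to 818 and 740 CPM, against 921 and 851 CPM in Pogz-set GFP. Oligodendrocyte markers (8 of 8) summed to 4136 and 2012 CPM in shAdnp, against 2556 and 3816 CPM in Adnp-set GFP, and to 2964 and 4354 CPM in shPogz, against 2571 and 2908 CPM in Pogz-set GFP. Interferon-response genes (10 of 10) summed to 257 and 404 CPM in shAdnp, against 72.5 and 223 CPM in Adnp-set GFP, and to 652 and 2001 CPM in shPogz, against 208 and 246 CPM in Pogz-set GFP. None of these lists had a marker at 0 in all libraries. Their part in the values of the subunits was not tested, and in bulk tissue fewer cells of a type and less RNA per cell cannot be told apart.

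The medians of the 5 complexes lay close to each other. Median log2 fold changes were -0.14 for complex I (33 of 34 below 0), -0.13 for complex II (4 of 4), -0.15 for complex III (8 of 8), -0.12 for complex IV (10 of 15) and -0.18 for complex V (16 of 17). The 5 members of complex IV above 0 were Cox8a and the isoforms Cox6a2, Cox8b, Cox6b2 and Cox7b2. Within complex I, the core subunits had a median of -0.14 and the accessory subunits one of -0.15. Without Adnp-set GFP replicate 2 the medians of complexes I to V were -0.08, -0.04, -0.06, 0.00 and -0.12, and without shAdnp replicate 2 they were -0.09, -0.05, -0.08, -0.05 and -0.10. Without Adnp-set GFP replicate 1 they were -0.21, -0.20, -0.24, -0.18 and -0.21, and without shAdnp replicate 1 they were -0.20, -0.19, -0.21, -0.18 and -0.22.

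In the Adnp set the 2 smallest p values fell in complex I. Ndufv2, whose protein carries an iron-sulfur cluster next to the NADH site, was at 95.3 and 87.1 CPM in shAdnp, against 120 and 119 CPM in Adnp-set GFP. Both shAdnp libraries were low and the controls nearly equal. The log2 fold change was -0.39 (SE 0.10, 0.764-fold, adjusted p = 0.317 by edgeR), and it lay between -0.44 and -0.32 when any one library was left out. Ndufa3, an accessory subunit of the membrane arm, was at 50.4 and 50.5 CPM in shAdnp, against 64.2 and 63.5 CPM in Adnp-set GFP. Its log2 fold change was -0.34 (SE 0.10, adjusted p = 0.334 by edgeR). Ndufb4, also of the membrane arm, was at 11.96 and 9.95 CPM in shAdnp and at 14.9 and 15.03 CPM in Adnp-set GFP, a log2 fold change of -0.45 (SE 0.16, adjusted p = 0.429 by edgeR). Of the Ndufb4 windows, 37.0% are shared with other loci.

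Other core subunits of complex I lay lower by less. Ndufs1, which takes electrons into the iron-sulfur chain, was at 157 and 147 CPM in shAdnp, against 167 and 183 CPM in Adnp-set GFP (log2 fold change -0.21, SE 0.10, adjusted p = 0.637 by edgeR). Ndufv1 was at 176 and 165 CPM in shAdnp, against 176 and 199 CPM in Adnp-set GFP. In both genes the shAdnp libraries lay below both controls, for Ndufv1 by less than 1 CPM.

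Among complexes II and III, Sdha was at 459 and 417 CPM in shAdnp, against 466 and 506 CPM in Adnp-set GFP. Sdhb and Sdhc overlapped between the groups, with log2 fold changes of -0.11 and -0.05 (SE 0.13 and 0.10), and Sdhd lay below its controls at -0.18 (SE 0.10). Uqcrb, a small subunit that binds ubiquinone with cytochrome b, was at 42.2 and 36.4 CPM in shAdnp, against 51.5 and 49.8 CPM in Adnp-set GFP. Its log2 fold change was -0.37 (SE 0.12, adjusted p = 0.400 by edgeR), and 43.2% of its windows are shared with other loci. Uqcrc2 was at 217 and 182 CPM in shAdnp and at 222 and 248 CPM in Adnp-set GFP, a log2 fold change of -0.24 (SE 0.12). It was -0.11 without shAdnp replicate 2 and -0.16 without Adnp-set GFP replicate 2. The Rieske protein Uqcrfs1 overlapped, at 83.2 and 80.6 CPM in shAdnp and 82.4 and 100 CPM in Adnp-set GFP.

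In complex IV, Ndufa4 was at 171 and 156 CPM in shAdnp, against 189 and 202 CPM in Adnp-set GFP, a log2 fold change of -0.25 (SE 0.11, adjusted p = 0.567 by edgeR). Cox5a was at 81.6 and 75.3 CPM in shAdnp, against 85.9 and 98.0 CPM in Adnp-set GFP (log2 fold change -0.23, SE 0.11, or -0.13 without Adnp-set GFP replicate 2), and Cox7b had a log2 fold change of -0.23 (SE 0.10). Cox5b, Cox6a1 and Cox7c overlapped their controls, with log2 fold changes of -0.04, -0.05 and -0.12. In complex V, Atp5o, the OSCP subunit that joins the stalk to the F1 head, was at 130 and 122 CPM in shAdnp, against 155 and 158 CPM in Adnp-set GFP. Its log2 fold change was -0.32 (SE 0.10, 0.802-fold, adjusted p = 0.380 by edgeR), and it lay between -0.35 and -0.26 with any one library left out. All 4 stalk subunits lay below 0 (median -0.23), as did the 3 c-ring genes (median -0.24). Of these, Atp5j (log2 fold change -0.01), Atp5g2 and Atp5g3 overlapped their controls, with Atp5g2 at 1.01 and 1.13 CPM in shAdnp. The other stalk and c-ring genes lay below both controls. The F1 subunits Atp5a1, Atp5b and Atp5c1 lay below their controls at -0.15, -0.17 and -0.20 (SE 0.12, 0.12 and 0.11), while Atp5d was at 0.06 (SE 0.10). Atp5c1 was at -0.12 without either shAdnp replicate 2 or Adnp-set GFP replicate 2.

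In shPogz the subunits lay less far below their controls, and again none passed the test. The edgeR test called 0 of 78 subunits and 0% of all tested genes, and DESeq2 and limma-voom called 0 subunits (smallest adjusted p of 0.547 and 0.723), where DESeq2 called 0.574% of all genes higher. At an unadjusted p under 0.05, 2 subunits were lower, where 2.65% of all tested genes were, and 1 was higher, where 4.05% were. There were 59 of 78 below 0, where 53.6% of all tested genes lay below 0, with a median of -0.08 against -0.02. Both shPogz libraries lay below both controls for 29 subunits, where this held for 21.3% of all tested genes, and above both for 7, where it held for 19.0%. Without Pogz-set GFP replicate 1, the library of lowest depth, 43 lay below 0 and the median was -0.02. The median was -0.05 without shAdnp replicate 2, which enters through the scaling and the shared spread, and -0.04 with library totals in place of TMM. By complex the medians were -0.08, 0.01, -0.05, -0.14 and -0.10 for complexes I to V. Without Pogz-set GFP replicate 1 they were -0.02, -0.00, 0.01, -0.05 and 0.01, and without shPogz replicate 1 they were -0.04, 0.09, -0.00, -0.15 and -0.13. Without shPogz replicate 2 they were -0.04, -0.02, -0.03, -0.12 and -0.07.

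**Figure D3:**
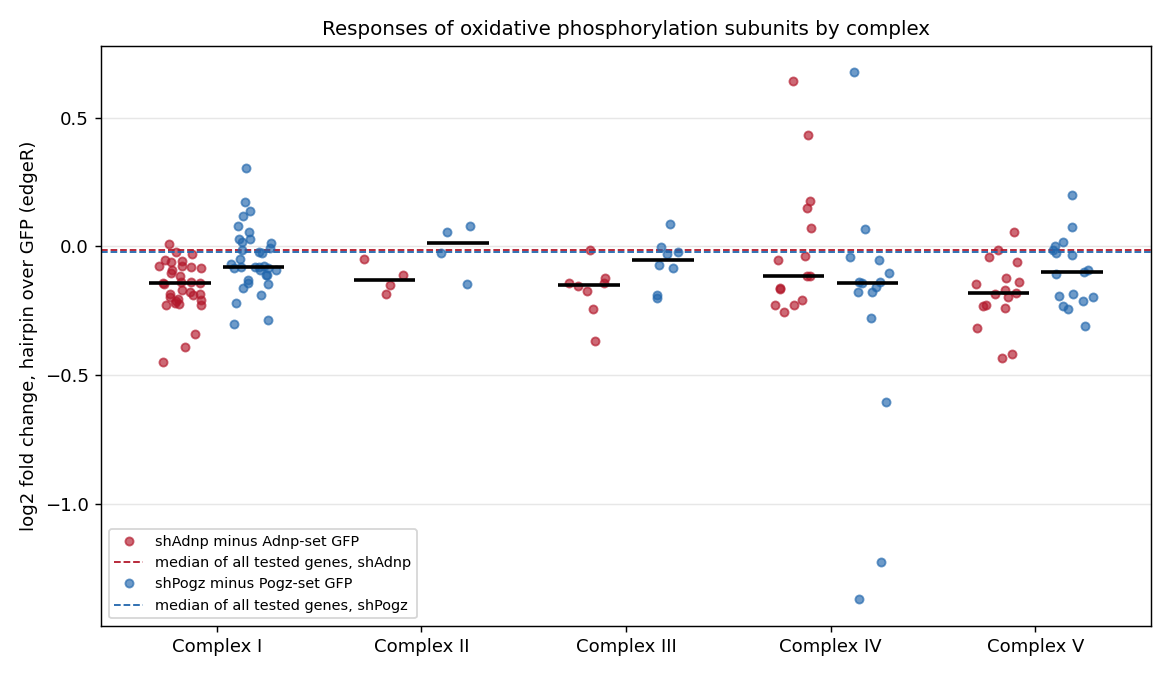
Log2 fold change of each tested subunit in shAdnp and in shPogz against its own GFP controls, by complex, with black bars for the median of a complex and dashed lines for the median of all tested genes. All complex medians of shAdnp lie between -0.18 and -0.12, and those of shPogz between -0.14 and 0.01.

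In the Pogz set the 3 smallest p values fell on Cox6a2 and Cox6b2 of complex IV and Atp5k of complex V. Atp5k was at 74.3 and 75.05 CPM in shPogz, against 88.9 and 87.8 CPM in Pogz-set GFP, a log2 fold change of -0.24 (SE 0.10, 0.845-fold, adjusted p = 0.667 by edgeR). The replicates of each group lay close together and the groups did not overlap. In the other set it was at 86.1 and 75.7 CPM in shAdnp and 90.8 and 93.0 CPM in Adnp-set GFP. Atp5g1 was at 54.3 and 46.5 CPM in shPogz, against 69.6 and 55.6 CPM in Pogz-set GFP (log2 fold change -0.31, SE 0.15, adjusted p = 0.667 by edgeR). It was -0.12 without Pogz-set GFP replicate 1 and -0.20 without shPogz replicate 2. Atp5d, the delta subunit of the F1 stalk, was at 108 and 96.9 CPM in shPogz and at 117 and 117 CPM in Pogz-set GFP, a log2 fold change of -0.19 (SE 0.10) that was -0.12 without shPogz replicate 2. Atp5a1 and Atp5b overlapped their controls, with log2 fold changes of -0.03 and -0.01 (SE 0.12 for both).

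Cox6a2, the muscle isoform of subunit 6a, was the only subunit above both controls in both sets, and the only one with a log2 fold change above 0 in both. Where 7.12% of all tested genes stood above their controls in both sets, this was 1 of 78 subunits. It was at 3.58 and 5.03 CPM in shPogz, against 2.76 and 2.63 CPM in Pogz-set GFP, from 153 and 192 counts in shPogz and 78 and 185 counts in Pogz-set GFP. The log2 fold change was 0.68 (SE 0.27, 1.60-fold, adjusted p = 0.667 by edgeR), and leaving out shPogz replicate 2 gave 0.41 and leaving out shPogz replicate 1 gave 0.94. In the Adnp set it was at 5.53 and 4.21 CPM in shAdnp, against 3.14 and 4.08 CPM in Adnp-set GFP, a log2 fold change of 0.43 (SE 0.26, adjusted p = 0.728 by edgeR). Its gene overlaps Itgad, an integrin of leukocytes, on the other strand, and the strand setting of the counting was not stated. Itgad stood at 0.304 and 0.445 CPM in shPogz, against 0.0354 and 0.412 CPM in Pogz-set GFP, and at 0.174 and 0.288 CPM in shAdnp, against 0.196 and 0.334 CPM in Adnp-set GFP.

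The testis isoforms had the lowest log2 fold changes of the Pogz set, and both were highest in 1 control library. Cox6b2 was at 0.889 and 1.10 CPM in shPogz, against 3.82 and 1.42 CPM in Pogz-set GFP. In the Adnp set it was at 0.991 and 0.576 CPM in shAdnp, against 0.425 and 0.987 CPM in Adnp-set GFP, so Pogz-set GFP replicate 1 stood apart from the other 7 libraries. The log2 fold change of -1.37 (SE 0.58, adjusted p = 0.667 by edgeR) was -0.49 without that library. Cox7b2 was at 0.351 and 0.262 CPM in shPogz, against 0.920 and 0.554 CPM in Pogz-set GFP, from 15 and 10 counts in shPogz and 26 and 39 counts in Pogz-set GFP. Its log2 fold change was -1.23 (SE 0.58, adjusted p = 0.667 by edgeR), and it was -0.83 without Pogz-set GFP replicate 1. Cox8b, at 10 and 4 counts in shPogz and 12 and 10 counts in Pogz-set GFP, was also highest in Pogz-set GFP replicate 1, at 0.424 CPM. Striated muscle markers had a summed level of 16.0 CPM in that library and 11.7 to 15.6 CPM in the other 7, most of it from Acta1, which stood at 11.6 CPM in that library and also in shAdnp replicate 2. Of the 5 tested, 5 lay below 0 in shPogz (median -0.69). Their part in the values of the isoforms was not tested.

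Ndufs4 and Ndufv2 had the most unequal responses to the hairpins among the subunits with over 10 CPM. Ndufs4 was at 56.7 and 64.9 CPM in shPogz, against 43.1 and 55.1 CPM in Pogz-set GFP (log2 fold change 0.30, SE 0.14), and at 56.0 and 50.1 CPM in shAdnp, against 61.0 and 60.6 CPM in Adnp-set GFP (-0.20, SE 0.14). In shPogz the value was 0.16 without Pogz-set GFP replicate 1 and 0.53 without Pogz-set GFP replicate 2. The difference of the responses, shPogz minus shAdnp, was 0.50 (SE 0.19, adjusted p = 0.978 by edgeR). Ndufv2 was at 104 and 117 CPM in shPogz, against 103 and 101 CPM in Pogz-set GFP, a log2 fold change of 0.12 (SE 0.10). Its difference of responses was 0.51 (SE 0.15, adjusted p = 0.978 by edgeR), and that of Uqcrb was 0.45 (SE 0.17). Between the controls, Pogz-set GFP minus Adnp-set GFP was -0.31 (SE 0.14) for Ndufs4, -0.23 (SE 0.10) for Ndufv2 and -0.25 (SE 0.12) for Uqcrb, with adjusted p of 0.676, 0.680 and 0.692 by edgeR. Uqcrb in shPogz turned to -0.03 without shPogz replicate 2, from 0.09 with all libraries.

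**Figure D4:**
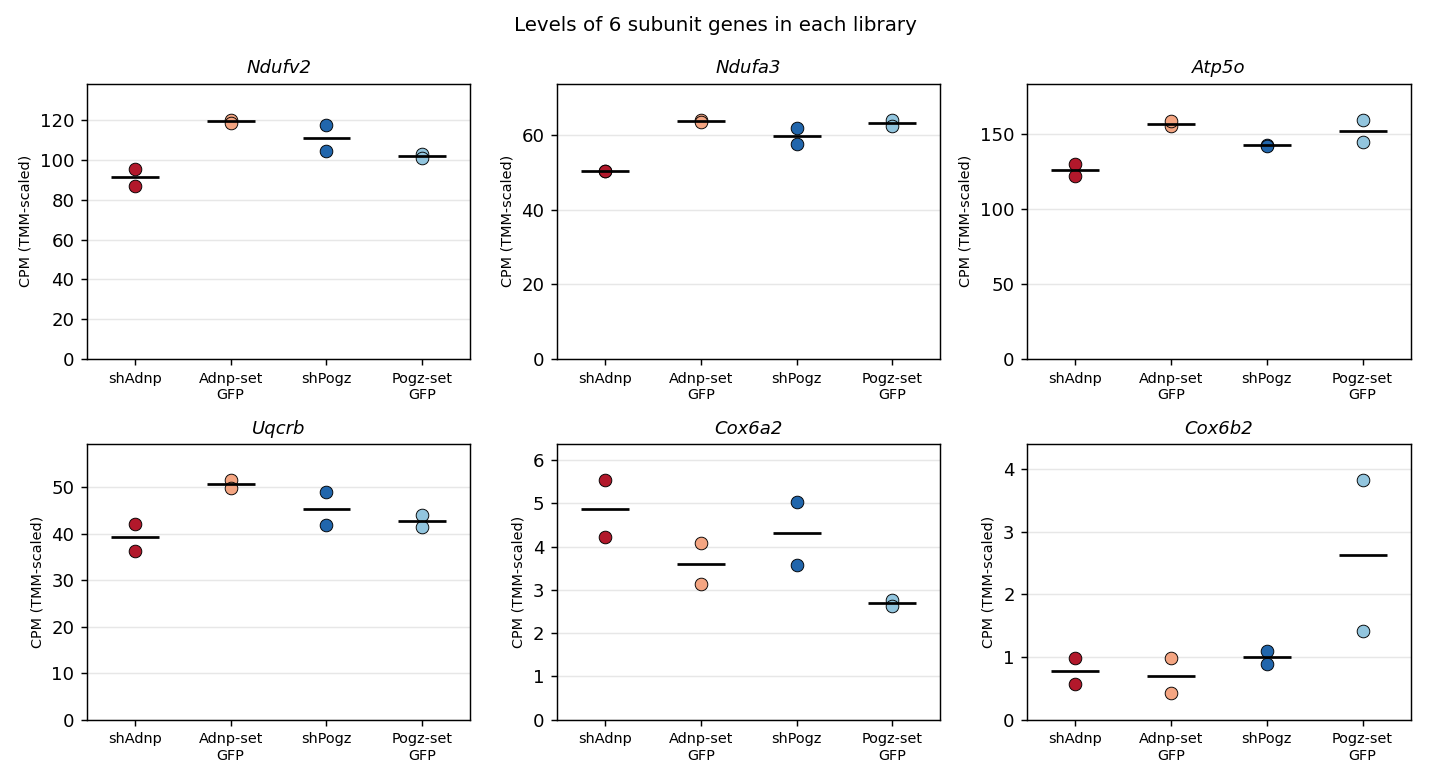
CPM of 6 subunit genes in each library, with points for libraries and bars for group means. Ndufv2, Ndufa3, Atp5o and Uqcrb are lower in both shAdnp libraries than in Adnp-set GFP, Cox6a2 is higher in both hairpin groups than in their controls, and Cox6b2 is high at 3.82 CPM in 1 Pogz-set GFP library.

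Tested over all 78 subunits, the difference of the responses called 0 of them and 0% of all tested genes by edgeR, and DESeq2 and limma-voom called 0 subunits, where DESeq2 called 0.0115% of all genes lower. At an unadjusted p under 0.05, 4 subunits were higher in shPogz than in shAdnp relative to their controls (Ndufv2, Uqcrb, Ndufs4 and Ndufc2) and 0 were lower, where 1.10% and 2.41% of all tested genes were. The median difference was 0.07 with 51 of 78 above 0, where 46.9% of all tested genes lay above 0. Without Adnp-set GFP replicate 2 the median was -0.003, and without shAdnp replicate 1 it was 0.14.

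Averaged over the hairpins in a model with a term for the set, 74 of 78 subunits lay below 0, where 55.3% of all tested genes did, with a median of -0.10 against -0.02. The edgeR test called 0 subunits and 0% of all tested genes, with a smallest adjusted p of 0.251 among the subunits. At an unadjusted p under 0.05, 12 subunits were lower, where 3.62% of all tested genes were, and Cox6a2 was higher, where 8.84% were. DESeq2 and limma-voom called 0 subunits, with a smallest adjusted p of 0.0971 for Cox6a2 and of 0.230 for Atp5k, where DESeq2 called 0.0820% of all genes lower and 4.08% higher. Above 0 were 4 subunits, where 44.7% of all tested genes were. Without shAdnp replicate 2 the median was -0.05 and 61 lay below 0. The sets have no library in common, and 53 of 78 subunits lay below 0 in both, where 32.3% of all tested genes did. Of the 71 subunits below 0 in the Adnp set, 53 were also below 0 in the Pogz set. That share was similar to the 59 of all 78 (75.6%) below 0 in the Pogz set. Agreement beyond these separate counts was not tested. For 12 subunits both hairpin libraries lay below both controls in each set, where this held for 5.31% of all tested genes. They are 30.8% of the 39 such subunits of the Adnp set, where 37.2% of all 78 lay below both controls in the Pogz set, and 41.4% of the 29 of the Pogz set, where 39 of all 78 did in the Adnp set. The overlap itself was not tested. These 12 are the complex I subunits Ndufa3, Ndufa8, Ndufb6 and Ndufs8, the complex IV subunits Cox6b1, Cox6c, Cox7b and Ndufa4, and Atp5g1, Atp5j2, Atp5k and Atp5o of ATP synthase, with none from complexes II and III.

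Ndufb6, an accessory subunit of the membrane arm chosen after its values were seen, was at 40.5 and 39.5 CPM in shAdnp, against 43.0 and 50.8 CPM in Adnp-set GFP (log2 fold change -0.23, SE 0.12), and at 42.5 and 38.7 CPM in shPogz, against 50.5 and 44.3 CPM in Pogz-set GFP (-0.22, SE 0.12). Cox6c was at 131 and 125 CPM in shAdnp, against 141 and 147 CPM in Adnp-set GFP, and at 126 and 130 CPM in shPogz, against 151 and 131 CPM in Pogz-set GFP. The GFP controls of the sets were also set against each other. Pogz-set GFP minus Adnp-set GFP had a median of -0.06 with 57 of 78 subunits below 0, where 48.2% of all tested genes lay below 0. The edgeR test called 0 subunits there, and 0.00574% of all tested genes. At an unadjusted p under 0.05, 3 subunits were lower and 1 was higher, where 2.70% and 4.65% of all tested genes were. DESeq2 called 0 subunits, 0.0402% of all genes lower and 0.379% higher. Both Pogz-set GFP libraries lay below both of the Adnp set for 23 subunits, where 22.3% of all tested genes did, and above for 4, where 21.2% did. With library totals in place of TMM the median was 0.02, and without Adnp-set GFP replicate 2 it was -0.01 with 40 below 0.

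Most genes of the lists around the respiratory chain also lay below 0 in shAdnp. Of the 10 related genes listed from outside the name pattern, 7 lay below 0 in shAdnp (median -0.11) and 7 in shPogz (median -0.08). Usmg5, a small ATP synthase subunit, was lowest in shAdnp at -0.35 (SE 0.13, adjusted p = 0.481 by edgeR). The enzymes of the TCA cycle and pyruvate dehydrogenase lay below 0 for 16 of 17 in shAdnp (median -0.15) and 14 of 17 in shPogz (median -0.08). Inner membrane carriers and porins lay below 0 for 9 of 9 in shAdnp (median -0.19) and 4 of 9 in shPogz (median 0.00). Of 76 mitochondrial ribosomal proteins, 66 lay below 0 in shAdnp (median -0.11) and 30 in shPogz (median 0.04). Assembly factors lay below 0 for 35 of 42 in shAdnp (median -0.12) and 23 of 42 in shPogz (median -0.02). They include Atp5sl, which the name rule also counts among the subunits. Glycolytic enzymes lay below 0 for 14 of 16 in each of shAdnp and shPogz (medians -0.10 and -0.07). The edgeR test called 0 genes of these lists. Adnp-set GFP replicate 2 was again the highest library most often, in 10 of 17 TCA genes, 7 of 9 carriers, 36 of 76 mitochondrial ribosomal proteins and 12 of 16 glycolytic genes.

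Genes for the regulators of the pathway had a median near 0 in shAdnp. Of 16 transcription factors and co-activators, 8 lay below 0 in shAdnp (median 0.02) and 10 in shPogz. Their median in shPogz was -0.06, beside -0.08 for the subunits. Tfam, which packages mitochondrial DNA and takes part in its transcription, had a log2 fold change of -0.14 (SE 0.12) in shAdnp. Ppargc1b, a PGC-1 co-activator, had one of 0.33 (SE 0.25) in shAdnp and -0.41 (SE 0.25) in shPogz. Members were also set side by side by the letters of their promoters, as a description. The 13 tested members with the NRF1 letters had a median of -0.14 in shAdnp and -0.14 in shPogz, against -0.16 and -0.09 for the 51 without. For the YY1 letters the medians were -0.14 in shAdnp and -0.07 in shPogz for 10 members with them, against -0.15 and -0.10 for 54 without. For the ETS letters they were -0.14 and -0.09 for 16 members, against -0.15 and -0.09 for 48.

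**Figure D5:**
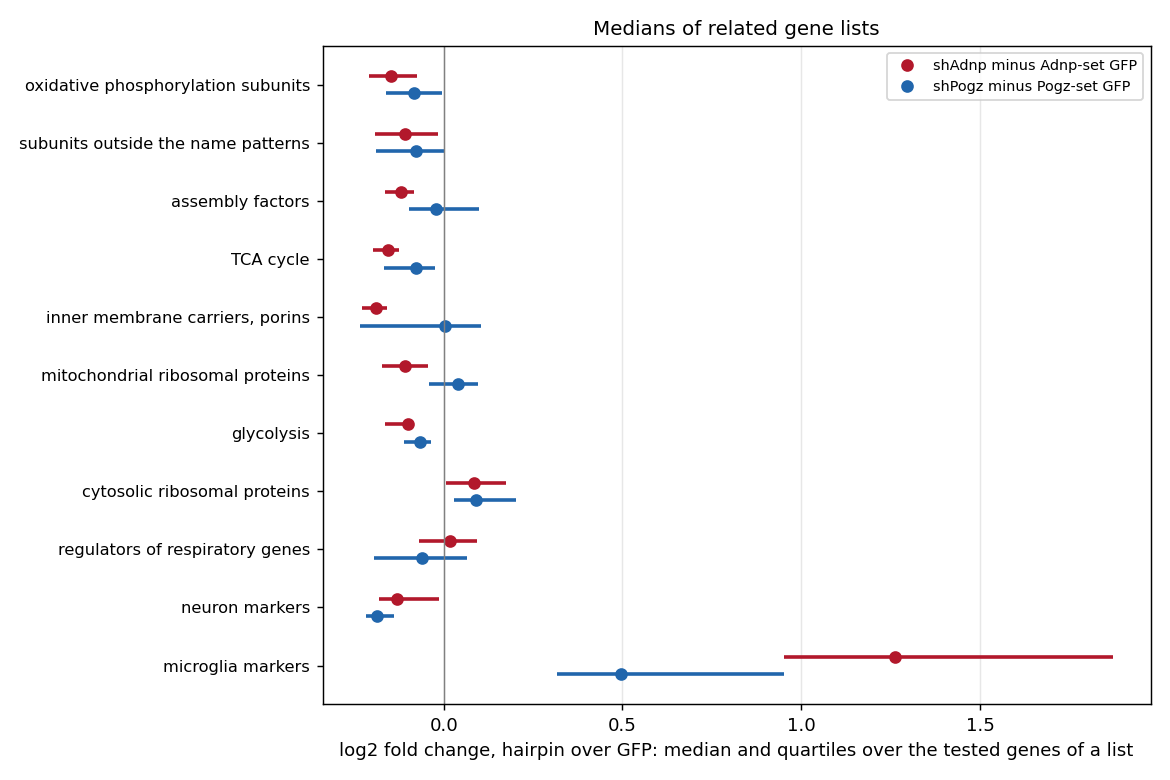
Median and quartiles of the log2 fold change over the tested genes of related lists, for shAdnp and shPogz against their own GFP controls. The row of subunits outside the name patterns holds the 10 related genes, not all of which are subunits. In shAdnp the mitochondrial and glycolytic lists lie between -0.19 and -0.10, cytosolic ribosomal proteins at 0.09 and microglia markers at 1.26.

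The values were also taken over members with little shared sequence. Among the 60 tested members with under 10% of their windows shared, the median was -0.14 in shAdnp (53 below 0) and -0.08 in shPogz (46 below 0). With structural subunits alone, leaving out the tissue isoforms, Atp5s and Atp5sl, the medians were -0.16 and -0.08 over 71 genes.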

How the data were processed

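Strand-specific total RNA libraries were prepared from prefrontal cortex after removal of ribosomal RNA, per the labels' protocols. The deposited values are raw counts per gene and sample, which the authors made with STAR and featureCounts on mm10, per the submitters' processing notes; those notes also name DESeq2, while the protocols name Cutadapt and TopHat2. The sources used here give no versions and no strand setting. The 25 identifiers turned into dates and 2 blank ones were dropped (0.306% to 0.337% of counts per library for the dates).

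Groups follow the sample titles. Counts were tested with edgeR 4.0.16 in R 4.3.3 (TMM scaling, filterByExpr with a minimum count of 10, quasi-likelihood test, 1 mean per group over all 8 libraries, Benjamini-Hochberg adjustment over 17415 genes, threshold 0.05). The common biological coefficient of variation was 0.171 with 4 residual degrees of freedom. DESeq2 1.42.0 and limma-voom (limma 3.58.1) were alternatives, beside other scalings, filters, a replicate block and leaving out each library. The fit was also run on simulated counts, with a spread below the common one of these data. The simulated fold changes were larger than those of most subunits. That run therefore does not show how shifts as small as theirs are called. Lists are described by counts and medians, with no test over a list.

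The members and gene lists were chosen with earlier results of these data known. Named genes are a fixed set of core and tissue-isoform subunits, the 3 members of smallest p in complexes I, III, IV and V per hairpin comparison, those failing the filter, and the highest and lowest fold change. Levels per length used the union of exons over RefSeq-paired transcripts of GENCODE, or over all transcripts of a gene where none is paired. The design had foreseen the union of exons without this choice of transcripts. The floor of 3 counts for a gene at 0 covers counting error only, whereas the SE values include the spread between libraries. Between replicates of a group, chi-square per degree of freedom was 274 in shAdnp and 28.0 to 48.15 in the other groups. The shAdnp value includes Rn45s, at 7.62% of counts in replicate 1 and 0.740% in replicate 2. The replicates of a group were therefore not repeats of each other. Deviations from the group means of libraries with the same number correlated at -0.0085 in the Adnp set and 0.0473 in the Pogz set, so the numbers were not taken as pairs. One member named by the rule is not reported here.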

Additional observations from a re-analysis of the deposited data

How the results depend on the processing

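No subunit was called in any comparison under any setting run. The shAdnp median stayed below 0 throughout, between -0.17 and -0.12 under other tests, scalings and filters and between -0.21 and -0.08 with a library left out, and that of shPogz lay between -0.08 and -0.04 and between -0.08 and -0.02. With library totals only, the controls' median was 0.023 with 32 below 0 (main -0.06 and 57), and 15 subunits lay below 0 in the difference of responses (main 27). With a library left out, that median lay between -0.0030 and 0.14 with 14 to 40 below 0, and the controls' between -0.12 and -0.01 with 40 to 65. The share of counts averaged 0.855% in shAdnp without Rn45s, against 0.925% in Adnp-set GFP. Over the TMM-scaled size it was 0.858% in shAdnp against 0.953% in Adnp-set GFP, and 0.867% in shPogz against 0.895% in Pogz-set GFP. Uqcrb in shPogz was 0.235 without shPogz replicate 1 and turned to -0.031 without shPogz replicate 2; the cause was not tested.

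Counts of called genes over all genes depended on the tool. DESeq2 called 420 genes in shAdnp, 100 in shPogz, 2 in the difference, 711 for both hairpins and 73 between the controls, against 0, 0, 0, 0 and 1 by edgeR. Between the controls, 6 were called with no low-count filter and 6 at an adjusted p under 0.1. With a library left out the counts were 0 to 8 in shAdnp, 0 to 153 in shPogz (153 without shPogz replicate 1), 0 to 4 in the difference, 0 to 556 for both hairpins (556 without shPogz replicate 1) and 0 to 6 between the controls. With the replicate block 175, 31, 405 and 11 genes were called in shAdnp, shPogz, both hairpins and controls, the subunit medians were -0.15 and -0.08, and 71 and 60 subunits lay below 0 in shAdnp and shPogz; between the controls, 46 lay below 0 (median -0.02). The shallowest library held 27501722 counts, and the testis isoforms and Cox8b rested on at most 108 counts a library.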

Other observations

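Cytosolic ribosomal proteins, the structural proteins of the translating ribosome, mostly had log2 fold changes above 0. Of 77 tested, 59 lay above 0 in shAdnp and 63 in shPogz, with a median log2 fold change of 0.09 in each, and the edgeR test called 0 of them. Both hairpin libraries lay above both controls for 23.4% of them in shAdnp and 18.2% in shPogz, where this held for 20.4% and 19.0% of all tested genes. The highest library was shPogz replicate 2 for 44 of the 77, and the lowest was Adnp-set GFP replicate 1 for 36. The median deviation of shAdnp replicate 2 from the mean of 8 libraries was -0.10, against -0.01 in Adnp-set GFP replicate 2. Meningeal fibroblast markers (6 of 6 measured) summed to 164 and 167 CPM in shAdnp, against 83.1 and 90.2 CPM in Adnp-set GFP, and to 135 and 148 CPM in shPogz, against 89.8 and 131 CPM in Pogz-set GFP. Their part in the values of the subunits was not tested.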
